A study of Mus musculus with 6 samples.

Results

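The genes described here are 47 genes of DNA repair, taken by name from a list chosen with earlier results of these data known. All were found in all 3 deposited expression tables, out of 13278 genes listed there. They were grouped by role into 13 genes of homologous recombination, 5 of damage signalling, 7 of the Fanconi pathway, 3 of mismatch repair, 5 of end joining, 8 of nucleotide excision repair, and 6 of base excision and single-strand break repair. They were followed across 6 libraries of single mouse blood stem and progenitor cells, and against how strongly each cell expressed cell-cycle genes. Counts could be worked back from the deposited scores for 12401 genes, all 47 members among them.

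All cells came from C57BL/6 mice and were sorted singly and copied by a modified Smart-seq2 method that enriches the 3′ ends of transcripts. HSC (haematopoietic stem cell), HPC (haematopoietic progenitor cell) and MPP (multipotent progenitor) name the sorting gates, and CD201 and CD48 are surface proteins used to subdivide them. Bone marrow cells negative for both proteins, from gates CD201-CD48- HSC1 and CD201-CD48- HPC1, made up the double-negative library (76 cells). In the HSC1 library were CD48+ HSC1 together with CD201+CD48- HSC1 (84 cells), and in the HPC1 library CD48+ HPC1 together with CD201+CD48- HPC1 (82 cells). Spleen is the tissue label of both, whereas marrow is the tissue in the title of the series. The MPP2-containing library held CD201-CD48- HPC1, MPP2, CD48+ HSC1 and CD48+ HPC1 cells of bone marrow (80 cells). These 4 libraries are labelled polyA RNA from mice of 8 to 10 weeks. Total RNA is the label of the other two, the HSC2/MPP4 library (MPP4 with CD48+ HSC2, 89 cells) and the library of CD48-negative HSC2 (CD48-CD201+ HSC2 with CD48-CD201- HSC2, 86 cells), both from bone marrow of 8-week-old mice. No mutation or drug treatment is named for any of them. Each group had 1 library, so gate, tissue label, RNA kind and library cannot be told apart, and a cell could be traced to its library but not to 1 of the gates mixed in it. Whether a library pooled several mice is not stated.

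Homologous recombination rebuilds a broken chromosome from its sister copy and is therefore tied to the time after DNA has been copied, whereas end joining needs no template and can act at any time. The Fanconi pathway unhooks cross-linked strands, mismatch repair corrects copying errors, and the excision pathways cut out single damaged bases or bulky lesions. In blood formation these pathways are known from bone marrow failure in Fanconi anaemia, and from the lack of lymphocytes when end joining fails, because lymphocyte receptor genes are assembled by it. Most adult stem cells of the marrow rest outside the cell cycle, while the progenitors below them divide often.

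Median counts per cell were lowest in CD48-negative HSC2, at 23540, and highest in the MPP2-containing library, at 145496, and library totals from 2778858 to 15019501 counts. No pair of the 497 cells held identical counts, and cell barcodes shared between libraries could not be counted because cells are named by library and number only. Genes of the stem cell list summed to 569 to 2083 counts per 1000000 counts (CPM) in the 6 libraries. Slamf1, a defining stem cell marker, had 0 counts in CD48-negative HSC2, which allows up to 1.08 CPM, and Hoxb5 had 0 counts in HSC2/MPP4, which allows up to 0.765 CPM. Genes of mature neutrophils summed to 313 CPM in HSC1 and to between 787 and 6588 CPM in the other libraries, and 18 of the 497 cells held over 1% of their counts in neutrophil and erythroid genes, with up to 31.4% in a single HSC2/MPP4 cell. Median cycling level, the counts of 33 S phase and 42 G2/M phase genes per 10000 counts of a cell, was 20.9 in CD48-negative HSC2, 27.7 in double-negative, 28.6 in HSC1, 43.3 in HPC1, 75.4 in HSC2/MPP4 and 111 in the MPP2-containing library. No member is among those 75 cell-cycle genes.

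Members were sparse. After each cell was thinned to 10000 counts, a median cell showed 5.5 of the 47 genes in CD48-negative HSC2, 6 in HSC1, 7 in double-negative, 8 in HPC1, and 9 in both the MPP2-containing and HSC2/MPP4 libraries. Thinning left out 1 double-negative, 4 HSC1, 1 HPC1, 8 HSC2/MPP4 and 20 CD48-negative HSC2 cells. Over all counts, every member was found in the double-negative and HPC1 libraries. Fanci and Ddb2 were absent from HSC1, Lig4 from the MPP2-containing and CD48-negative HSC2 libraries, and Fanci from HSC2/MPP4. Absence means 0 counts, which allows up to 0.462 CPM in HSC1, 0.2 in MPP2-containing, 1.08 in CD48-negative HSC2 and 0.765 in HSC2/MPP4. Reads come from 3′ ends and are not scaled by length, so levels are compared between libraries within a gene or group and not between genes.

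The summed level of all 47 genes was 1337 CPM (exact 95% Poisson interval 1294 to 1381) in CD48-negative HSC2, 1393 (1365 to 1422) in HSC1, 1592 (1567 to 1617) in double-negative, 1665 (1642 to 1689) in HPC1, 1708 (1667 to 1749) in HSC2/MPP4 and 1828 (1806 to 1850) in the MPP2-containing library. In this order, the intervals met between CD48-negative HSC2 and HSC1 and between HPC1 and HSC2/MPP4, and not between the other neighbours. These intervals cover counting error only, and amplified reads need not be independent molecules. The intervals leave out differences between cells. A single cell gave 4.68 to 9.55% of a library's member counts, a share that also reflects its depth. The deepest 10% of cells held 25 to 34.6% of all counts of a library. The MPP2-containing and HSC2/MPP4 libraries held the highest level of 12 and 14 members. The lowest level of 16 members lay in HSC1 and of 13 in CD48-negative HSC2.

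The library with the highest level was not the same for each role. The homologous recombination genes summed to 659 CPM in MPP2-containing and 613 in HPC1, against 524 in double-negative, 493 in HSC2/MPP4, 439 in HSC1 and 362 in CD48-negative HSC2. Rad50 alone gave 118 to 236 CPM of these sums, with 236 in double-negative and 140 in HSC2/MPP4. Without Rad50, double-negative would lie below HSC2/MPP4. Nucleotide excision genes summed to 237 CPM in HPC1 and 262 in HSC1, and reached 327 in HSC2/MPP4. The lower sum in HPC1 rests on Xpc, at 34.5 CPM against 74.9 in HSC1. Of the others, Ercc1, Ercc2 and Ercc3 were also lower in HPC1, while Ercc5, Xpa, Ddb1 and Ddb2 were higher. End joining genes were highest in double-negative at 203 CPM and lowest in the MPP2-containing library at 148. Base excision and single-strand break genes fell into a higher set of 346 CPM in HPC1, 342 in MPP2-containing and 362 in HSC2/MPP4, and a lower set of 253 in HSC1, 275 in double-negative and 244 in CD48-negative HSC2. Fanconi genes spanned 78.4 to 92.5 CPM, the narrowest range in CPM of the 7 roles.

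**Figure D1:**
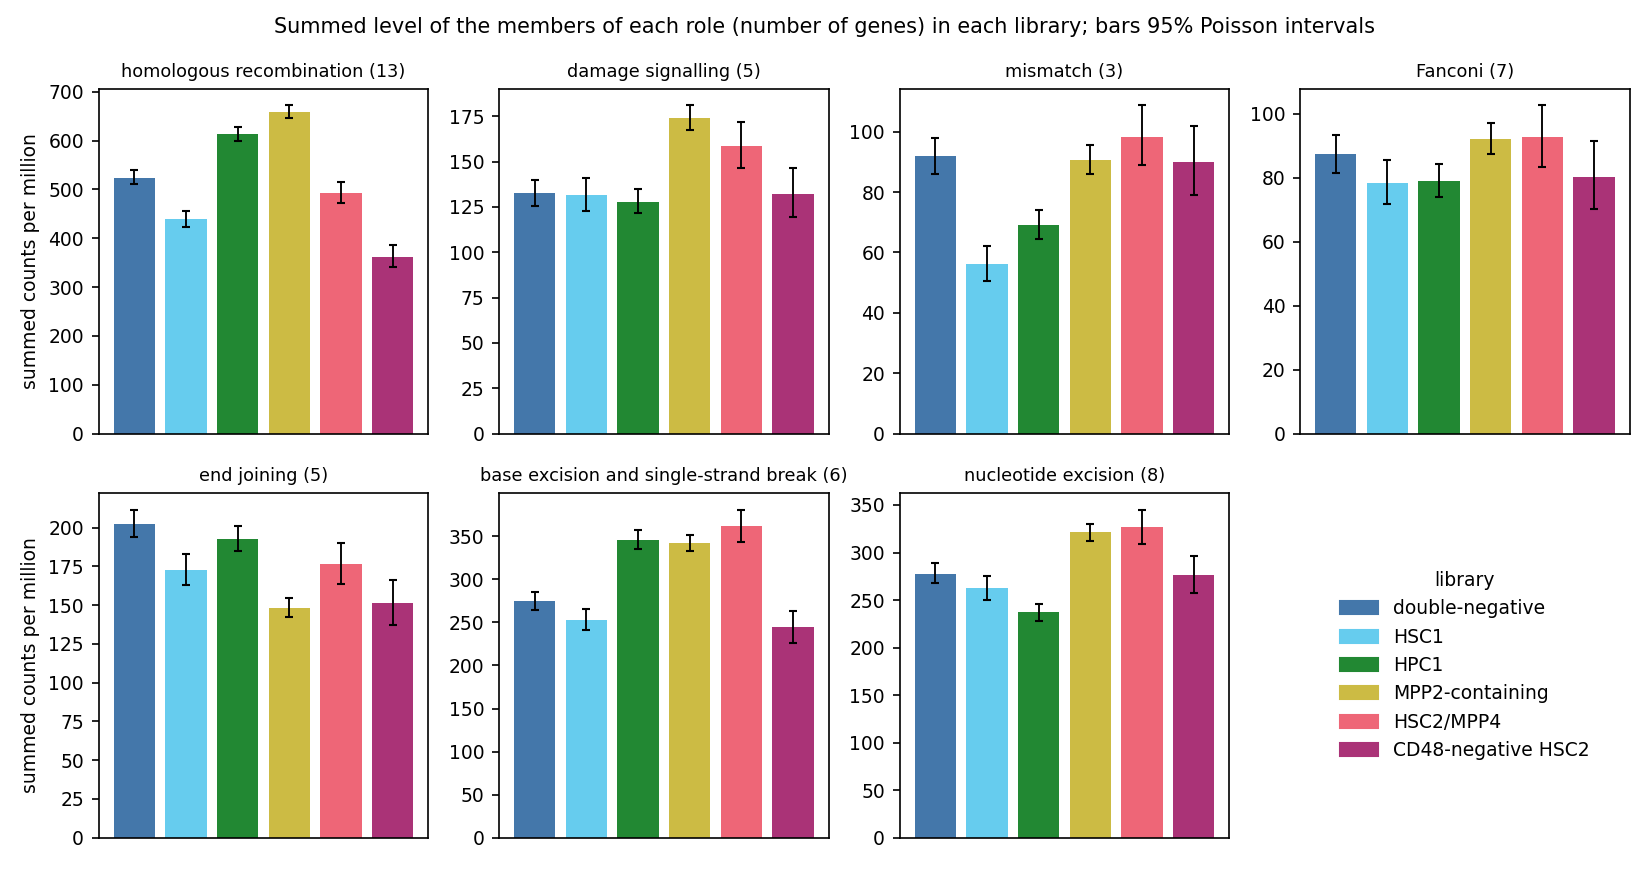
Summed CPM (vertical axis, from 0) of the members of each role in the 6 libraries (coloured bars), with exact 95% Poisson intervals that cover counting error only and the number of genes in brackets. Homologous recombination is highest in the MPP2-containing library (659) and lowest in CD48-negative HSC2 (362), whereas end joining is highest in the double-negative library (203).

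Within each library, cells were ranked by cycling level and divided into 3 classes of near equal size, and counts were summed over the lowest and the highest class, which held 25 to 29 cells each. The median level of the low class was 15.1 to 36.2 cell-cycle counts per 10000, and of the high class 56.4 to 200 per 10000. The limits differed between libraries. The low class of MPP2-containing ran up to 64 per 10000, while the high class began at 31.2 in CD48-negative HSC2, 36.6 in HSC1 and 44.5 in double-negative. Low and high are therefore relative to the library, and some low-class cells had a higher cycling level than high-class cells of other libraries. The classes are ranges and not cell types: 7 to 17 cells of a library lay within 10% of the lower limit and 6 to 10 within 10% of the upper limit. The high classes were also more deeply sequenced, with median counts per cell of 28270 to 186775 against 17647 to 106687. The 2 sums of each library were compared over the 6 libraries with limma, with library as a block, on log2(CPM + 10), where a difference understates the change of low genes. Calls are at an adjusted p under 0.05 (Benjamini-Hochberg over all 9360 genes with a mean of at least 5 CPM).

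The summed level of the members was higher in cycling-high cells of each library. They summed to 1323, 902, 1286, 1408, 1408 and 1119 CPM in the low classes of, in this order, double-negative, HSC1 and HPC1, then MPP2-containing, HSC2/MPP4 and finally CD48-negative HSC2, and to 1987, 1771, 1852, 1910, 2111 and 1684 CPM in their high classes, so that every high class lay above every low class. Of the 47 members 39 reached the minimum level. Of these, 10 were called higher and 0 lower, where 5.34% of all tested genes were called higher and 1.97% lower. The median log2 difference was 0.40 over the tested members and 0.01 over all tested genes. The 10 were Rad51ap1, Exo1, Brca2, Brca1, Rad54l, Bard1 and Rad50 of 12 tested homologous recombination genes, Chek1 and Chek2 of 5 damage signalling genes, and Msh6 of 3 mismatch repair genes. None of the 4 tested Fanconi, 4 end joining, 6 nucleotide excision or 5 base excision and single-strand break genes was called.

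**Figure D2:**
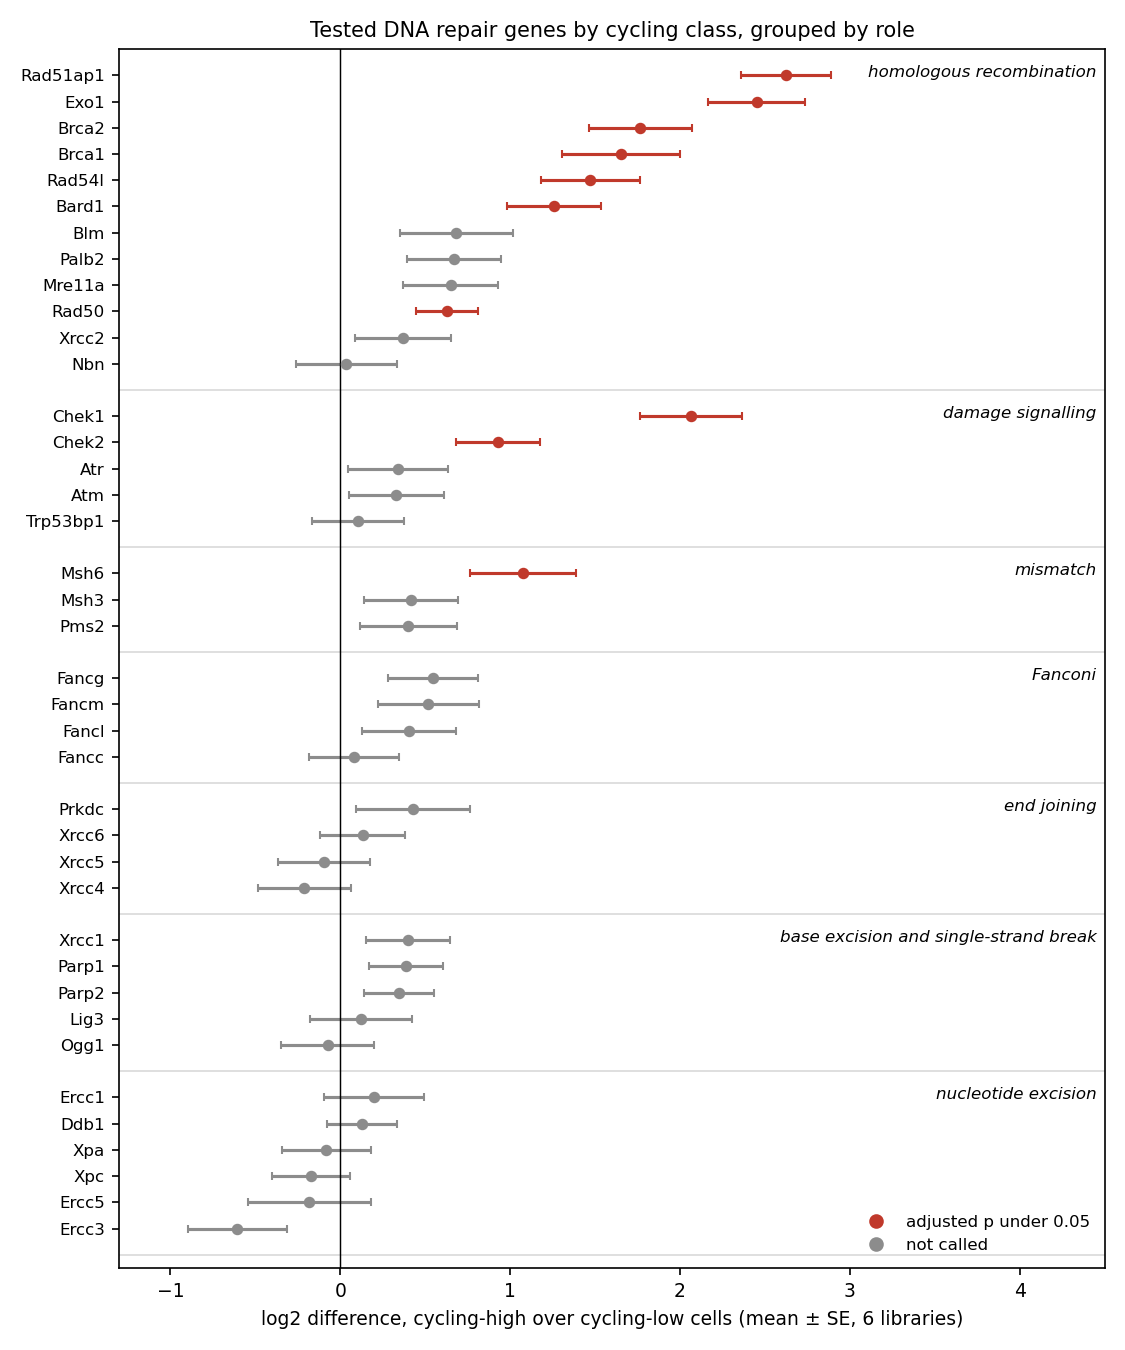
Log2 difference between cycling-high and cycling-low cells (horizontal axis, mean ± SE of the fit over 6 libraries) of the 39 tested members, grouped by role; red points have an adjusted p under 0.05. The 10 red points run from Rad50 at 0.63 to Rad51ap1 at 2.62, and the nucleotide excision genes lie around 0 with Ercc3 at -0.61.

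Rad51ap1 encodes a protein that helps the broken strand invade its template. It stood at 2.7, 8.6, 5.2, 8.5, 1.3 and 0 CPM in the low classes, in the order of libraries just given, and at 93.7, 81.3, 80.8, 101.8, 72.8 and 41.4 CPM in the high classes. The classes did not overlap, and the 0 counts of CD48-negative HSC2 allow up to 4 CPM. The log2 difference was 2.62 (SE 0.267, adjusted p = 4.65e-07, higher in 6 of 6 libraries). After thinning, 3 of 153 low-class cells and 50 of 154 high-class cells held a count of it.

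Exo1, an exonuclease that resects broken ends and also serves mismatch repair, gave 5, 6.6, 2.4, 7.2, 0 and 0 CPM in the low classes, in the same order of libraries. The high classes gave 80.2, 44, 54.7, 70.1, 92.6 and 44.9 CPM. Here too no low class reached a high class, and the log2 difference was 2.45 (SE 0.286, adjusted p = 3.23e-06). Brca2, a mediator of strand exchange in homologous recombination, stood at 6.3, 10.6, 18.1, 56.7, 10.2 and 29.4 CPM in the low classes and at 115.8, 68.9, 96.6, 73.7, 110.9 and 62.6 CPM in the high classes. The smallest step of Brca2 was that of the MPP2-containing library, whose low class already stood near the high classes. Its log2 difference was 1.77 (SE 0.305, adjusted p = 0.000418).

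Brca1 and Bard1 form a ubiquitin ligase that promotes resection and recombination. Brca1 gave 0.7, 17.7, 2.1, 1.9, 0 and 0 CPM in the low classes and 11.2, 13.9, 29.2, 71.2, 64.3 and 23.8 CPM in the high classes, a log2 difference of 1.65 (SE 0.347, adjusted p = 0.00352). The HSC1 library went against the other 5 for Brca1, and its call was lost without the filter on low levels (adjusted p = 0.0644). Bard1 gave 7.3, 0.5, 1.7, 9.4, 1.3 and 0 CPM in the low classes and 16.6, 9.4, 28.5, 37.7, 29.7 and 13.2 CPM in the high classes, a log2 difference of 1.26 (SE 0.276, adjusted p = 0.00506). It was higher in the high class of all 6 libraries.

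Rad54l, a motor protein that acts on chromatin during recombination, stood at 13.7, 2, 16.7, 15.6, 2.5 and 5.3 CPM in the low classes and 33.7, 58.7, 74.8, 51.6, 26.1 and 20.3 CPM in the high classes (log2 difference 1.47, SE 0.29, adjusted p = 0.00181). Every high class lay above every low class, but the call was lost when a narrower high class was set against all other cells (log2 difference 0.60, adjusted p = 0.296). Rad50 belongs with Mre11a and Nbn to the complex that first binds broken ends. Rad50 stood at 175, 77.2, 168, 154, 85.4 and 88.1 CPM in the low classes and at 268, 162, 205, 175, 182 and 154 CPM in the high classes. The step of Rad50 was small and the classes overlapped across libraries, but it rose in 6 of 6 (log2 difference 0.63, SE 0.181, adjusted p = 0.0343). Rad50 was called under 10 of 20 alternatives (adjusted p from 0.0144 to 0.719). Its partners were not called, with log2 differences of 0.65 (SE 0.278, adjusted p = 0.177) for Mre11a and 0.03 (SE 0.296, adjusted p = 0.966) for Nbn. Palb2, which joins BRCA1 to BRCA2, was at 0.67, the helicase gene Blm at 0.68 and Xrcc2, which acts in the same pathway, at 0.37, none of them called on these counts. Rad51c, a further recombination gene, was too low to be tested, at 0 to 12.8 CPM in the low and 0.4 to 12.1 CPM in the high classes.

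**Figure D3:**
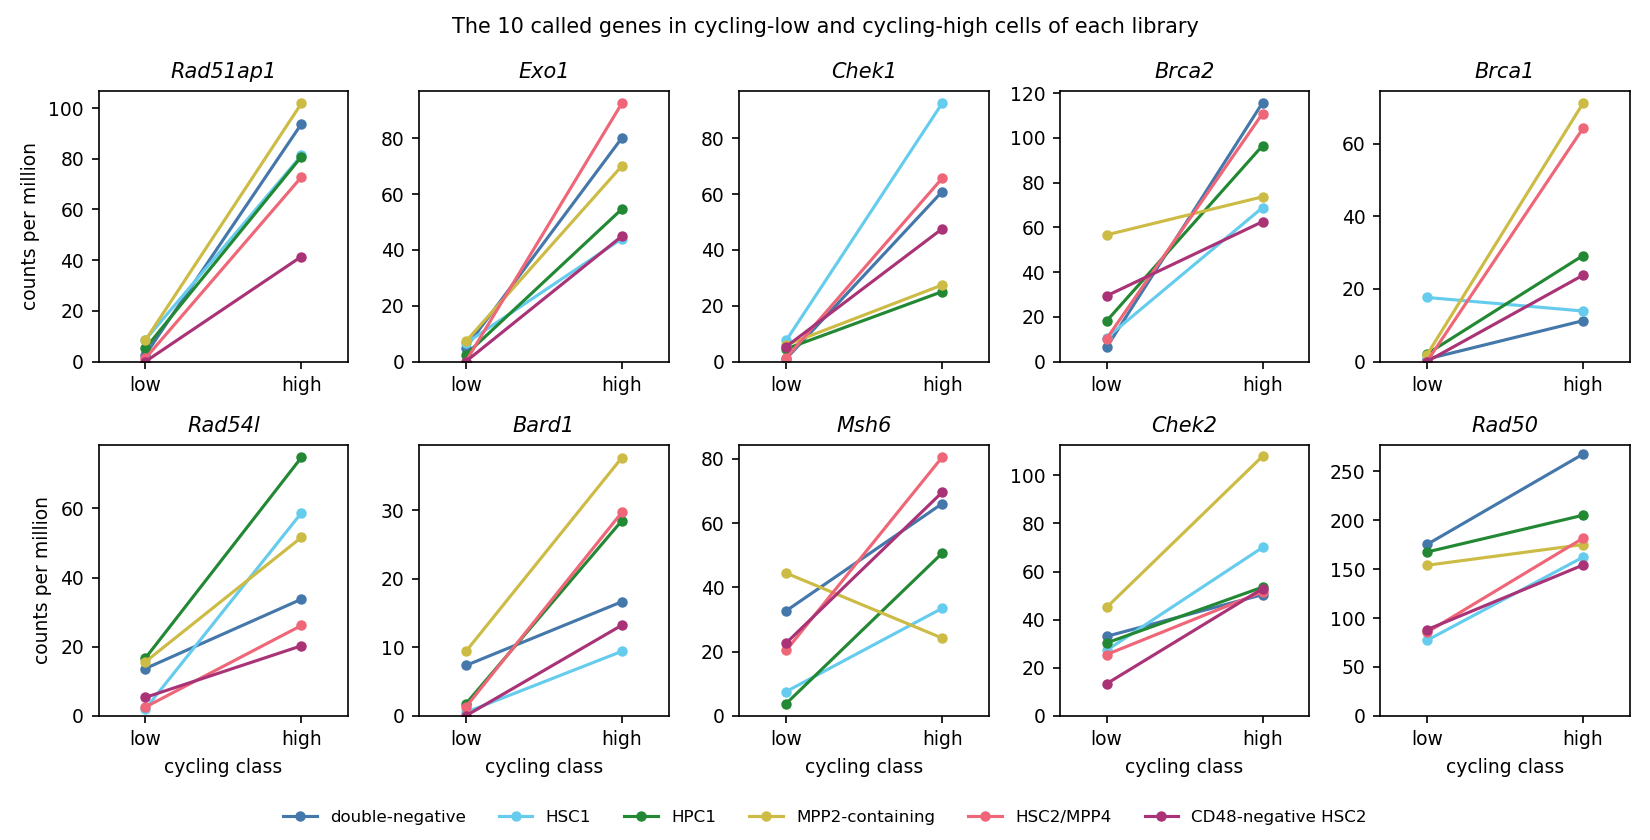
CPM (vertical axes, from 0) of the 10 called genes in the cycling-low and cycling-high cells of each library; each line joins the 2 classes of 1 library. Lines rise in all 6 libraries for 8 of the genes, while Brca1 falls in HSC1 from 17.7 to 13.9 and Msh6 falls in the MPP2-containing library from 44.4 to 24.2.

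Of the damage signalling genes, those of both checkpoint kinases were called. Chek1, the kinase that acts below ATR when copying stalls, stood at 1, 7.6, 4.5, 5.9, 1.3 and 5.3 CPM in the low classes and 60.9, 92.6, 25, 27.4, 65.7 and 47.6 CPM in the high classes. Low and high classes did not overlap (log2 difference 2.07, SE 0.3, adjusted p = 5.62e-05). Chek2, the kinase below ATM, went from 33, 27.2, 30.3, 45.1, 25.5 and 13.3 CPM to 50.4, 70, 53.5, 107.9, 51.6 and 52.9 CPM (log2 difference 0.93, SE 0.245, adjusted p = 0.0202). Atm, the break-sensing kinase gene, and Atr, its counterpart for stalled copying, were not called, at log2 differences of 0.33 (SE 0.279) and 0.34 (SE 0.293). Trp53bp1, whose protein shields broken ends from resection, was at 0.10 (SE 0.273). The lack of a call does not show that these 3 genes were alike in both classes.

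Of the mismatch repair genes, Msh6, a subunit of the sensor that reads single mismatches, stood at 32.7, 7.6, 3.8, 44.4, 20.4 and 22.7 CPM in the low classes and 66.1, 33.5, 50.7, 24.2, 80.6 and 69.6 CPM in the high classes. It fell only in the MPP2-containing library and was called over all 6 (log2 difference 1.08, SE 0.312, adjusted p = 0.0354). This call held under 8 of 20 alternatives (adjusted p from 0.005 to 0.497). Msh3, the alternative sensor partner, was at 0.41 (SE 0.277, adjusted p = 0.43) and Pms2, part of the cutting complex, at 0.40 (SE 0.284, adjusted p = 0.461). Of the Fanconi genes, Fancg, a core complex member, was higher in 6 of 6 libraries without being called (log2 difference 0.55, SE 0.267, adjusted p = 0.252). The anchor gene Fancm was at 0.52, the ubiquitin ligase gene Fancl at 0.41 and Fancc at 0.08. Fanca, Fancd2 and Fanci, of which the last pair encode the clamp that the ligase marks, were too low to test. Fancd2 reached 1.9 to 12.7 CPM in the high and 0 to 8 CPM in the low classes.

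No end joining, nucleotide excision, base excision or single-strand break gene was called. Xrcc5 and Xrcc6, which encode the Ku ring that grips broken ends, were at log2 differences of -0.09 (SE 0.27) and 0.13 (SE 0.249), Prkdc, the kinase recruited by Ku, at 0.43 (SE 0.335) and Xrcc4, the ligase scaffold, at -0.21 (SE 0.275). Lig4, the ligase itself, had 22 counts in all 497 cells and was not tested. Among nucleotide excision genes, the lesion sensor Xpc was at -0.17 (SE 0.227) and lower in 5 of 6 high classes, Xpa at -0.08, Ddb1 at 0.13, Ercc1 at 0.20 and Ercc5 at -0.18. Ercc3, a helicase of the TFIIH complex, had the lowest value of all tested members at -0.61 (SE 0.292, adjusted p = 0.244). Parp1 and Parp2, which mark nicks for repair, were at 0.39 (SE 0.218) and 0.35 (SE 0.204), their scaffold Xrcc1 at 0.40 (SE 0.248), the ligase gene Lig3 at 0.12 and the glycosylase gene Ogg1 at -0.07. Summed by role, homologous recombination genes went from 331, 190, 296, 388, 212 and 231 CPM in the low classes to 732, 632, 774, 758, 707 and 501 in the high ones. Nucleotide excision genes went from 337, 237, 252, 283, 438 and 294 CPM to 269, 251, 230, 337, 329 and 267, up in 2 libraries and down in 4.

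Classes drawn from the S phase genes alone called 11 members higher and 0 lower (5.14% and 2.26% of all tested genes), with Parp1 (log2 difference 0.78, adjusted p = 0.0158) and Atm added and Chek2 lost. Classes drawn from the G2/M genes alone called 6 higher and 0 lower (4% and 1.61% of all tested genes). The 4 that were lost under G2/M classes were Chek1 (log2 difference 0.91, adjusted p = 0.0935, against 2.33 under S phase classes), Chek2, Rad50 (0.16 against 0.63) and Msh6 (0.70 against 1.32). The difference between the 2 kinds of class was not tested, and both share cells. Leaving out HSC1 or CD48-negative HSC2 left 7 calls, double-negative or HSC2/MPP4 8, and HPC1 or MPP2-containing 9, and the calls lost were Chek2, Msh6 and Rad50 in different combinations. The same 3 were lost when cells were thinned to 10000 counts (7 calls). Msh6 was also lost with 50 CPM added (9 calls), and Msh6 and Rad50 were lost without the library block or without the trend (8 calls each). With a narrower high class against all other cells, Msh6, Rad50 and Rad54l were lost (7 calls). Without the filter on low levels, Brca1, Msh6 and Rad50 were lost (7 calls). Averages of the deposited scores, in place of recovered counts, called 12 members, with Blm and Fancg added. Low classes of Rad51ap1, Exo1, Brca1, Bard1 and Chek1 averaged under 5 CPM, so that these genes reached the minimum level through their high classes. Rad51ap1, Exo1 and Brca2 were called under all 20 alternatives and Bard1 under the 19 in which it was tested. All 10 remained called without the 18 cells rich in neutrophil or erythroid genes, an alternative chosen after seeing the data.

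Stem cell markers moved with the same classes. Of 11 genes of the stem cell list 0 were called higher and 5 lower, and they summed to 844 to 3534 CPM in the low classes and 536 to 1612 CPM in the high classes. Mature neutrophil genes summed to 61.2 to 23973 CPM in the low and 43.1 to 8003 CPM in the high classes, and 0 of 6 tested were called. Erythroid genes summed to 514 to 8029 and 281 to 8137 CPM, with 0 of 9 called. The part of cell type and of depth in the members' differences was not tested beyond the alternatives above.

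Among 84 further DNA repair genes, on a list likewise chosen with earlier results known, 75 were tested. Of these, 22 were called higher and 0 lower, with a median log2 difference of 0.36. Those called higher included Lig1, the ligase that seals newly copied strands, at 3.07, and the glycosylase gene Neil3 at 2.59. Of 21 target genes of the damage-responsive factor p53, 15 were tested and Cdkn1a, an inhibitor of the cell cycle, was called higher (log2 difference 1.12, SE 0.309, adjusted p = 0.0268), with none lower. The median log2 difference of the tested p53 targets was -0.05. Of all tested genes 5.34% were called higher and 1.97% lower, so the call of Cdkn1a is not read as a result about the p53 list.

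The sequence before the start sites of the members was searched for the E2F-type motifs TTTGGCGC, TTTCGCGC, TTTCCCGC and TTTGCCGC on both strands, in 250 bases. E2F factors are known to switch on genes of DNA copying and repair before S phase. RefSeq promoters of GRCm38.p6 were found for 38 of the 47 members (41 promoters), and 6 promoters held a motif (14.6%), against 390 of 12372 promoters of all genes with counts (3.15%). Overlapping motifs were counted as 1 promoter. Among genes called higher in cycling cells other than the members, 38 of 463 promoters held one (8.21%). By call, 3 of 9 promoters of called members and 3 of 24 of tested members without a call held a motif. The 3 called members are shown as 60 bases, 5′ to 3′ on the strand of the gene with the motif in capitals. That of Bard1 reads TTTCCCGC along the gene's strand, and those of Brca2 and Chek2 hold its reverse complement.
Brca2 (chr5:150522427-150522486, plus strand): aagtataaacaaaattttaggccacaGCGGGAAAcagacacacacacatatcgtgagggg
Bard1 (chr1:71103148-71103207, minus strand): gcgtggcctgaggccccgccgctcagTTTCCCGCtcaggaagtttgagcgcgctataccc
Chek2 (chr5:110839805-110839864, plus strand): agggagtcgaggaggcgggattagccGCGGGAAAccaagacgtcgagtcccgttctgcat
The motif lies 160 bases before the start site in Brca2, 201 in Bard1 and 144 in Chek2. The other 3 promoters with a motif were those of Fancg, Msh3 and Xrcc6, and are not shown. A match is a description of the letters and not a binding site. No motif was in the searched windows of Rad51ap1, Chek1, Brca1, Rad54l or Msh6, and no promoter was at hand for Exo1 or Rad50.

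On GRCm38 (GENCODE M21) the genes with the largest differences are protein-coding. Rad51ap1 spans 126923050 to 126939587 on the minus strand of chromosome 6, Exo1 175880581 to 175913489 on the plus strand of chromosome 1, Chek1 36708482 to 36727065 on the minus strand of chromosome 9, and Brca2 150522630 to 150570329 on the plus strand of chromosome 5. None of these 4 shares its last 500 exon bases with a gene of the opposite strand. For Apex1, Fanca, Lig3 and Ddb2 all of the last 500 exon bases are shared with an opposite gene, and for Fancl, Fanci, Ercc2, Fancd2, Ogg1, Ercc1, Xpa and Msh6 between 34 and 410 of them are. Whether strand was used in counting is not stated, so counts of these 12 genes are uncertain.

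In single cells thinned to 10000 counts, the counts of the 13 homologous recombination genes were compared with the cycling level of the cell. Spearman coefficients were 0.63 over 81 HPC1 cells, 0.56 over 80 HSC1 cells, 0.50 over 81 HSC2/MPP4 cells, 0.30 over 80 MPP2-containing cells, 0.27 over 75 double-negative cells and 0.25 over 66 CD48-negative HSC2 cells. At 20000 counts the last 3 were 0.49, 0.38 and 0.39, over 77, 73 and 46 cells, and HSC2/MPP4 was at 0.48, so the order of these libraries is not read from them. Cells of 1 library share their source, so no p is given. At 10000 counts, damage signalling genes gave 0.18 to 0.30 and Fanconi genes 0.03 to 0.21. Base excision and single-strand break genes gave -0.09 in MPP2-containing to 0.28 in double-negative, and mismatch genes -0.01 in double-negative to 0.26 in HSC2/MPP4. Homologous recombination was thus not the highest role in double-negative, nor in CD48-negative HSC2, where damage signalling genes gave 0.28. End joining genes lay between -0.20 in HPC1 and 0.20 in CD48-negative HSC2, and nucleotide excision genes between -0.20 in HSC2/MPP4 and 0.18 in MPP2-containing. The sparse counts limit these coefficients, and those near 0 are not read as a relation.

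**Figure D4:**
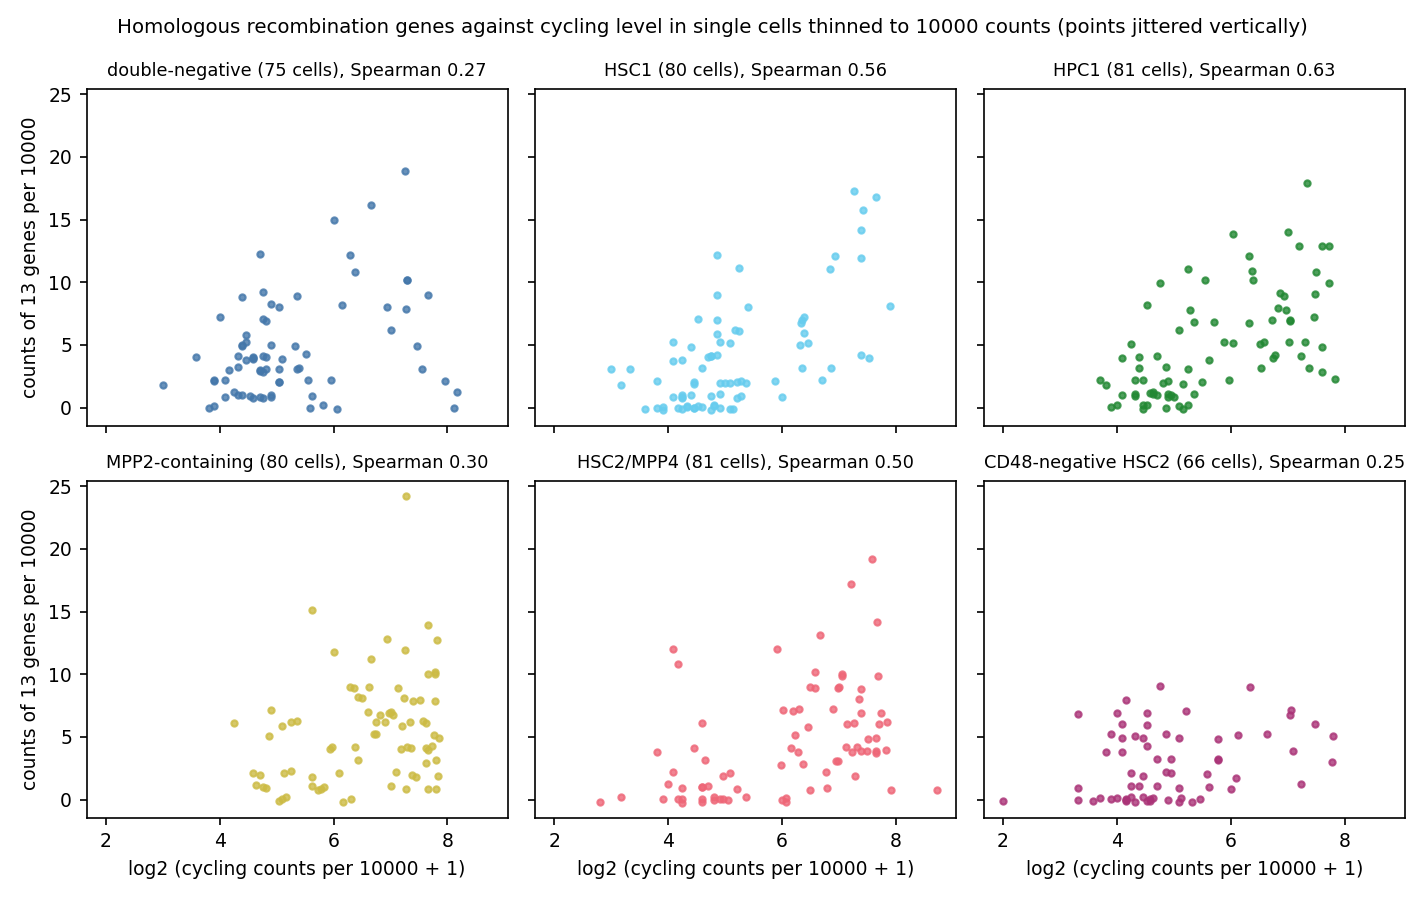
Counts of the 13 homologous recombination genes per 10000 counts (vertical axis, points jittered) against the cycling level of the cell (horizontal axis, log2 scale) in each library; each point is 1 cell thinned to 10000 counts. The Spearman coefficient is above 0 in each library, from 0.25 in CD48-negative HSC2 to 0.63 in HPC1.

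The 4 library comparisons have 1 library a side and no test, and are given as log2 ratios of CPM with 10 CPM added. Between HPC1 and HSC1, which mix the same gates of progenitor and stem cells, the member median was 0.27, with 32 of 47 above 0 and none changed 2-fold in either direction (1.81% of all 12401 genes were at least 2-fold higher and 1.93% lower). The median over all genes was 0.00. With per-cell means the member median was 0.10, and with 50 CPM added 0.11. Nbn was highest at 0.97 (55.3 CPM in HPC1 against 23.4 in HSC1), followed by Bard1 at 0.83 (15.3 against 4.2). Lowest were Xpc at -0.93 (34.5 against 74.9 CPM) and Chek1 at -0.89 (18 against 42.1 CPM), although 31% of the HSC1 counts of Chek1 came from 1 cell. In cells of low cycling level over all libraries (21 HPC1 and 31 HSC1 cells) the median was 0.04, against 0.00 over all genes, with 25 members above 0 and 19 below.

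Between the MPP2-containing and double-negative libraries the member median was 0.21, with 32 of 47 above 0, against a median of -0.005 over all genes. It was 0.06 with per-cell means and 0.08 with 50 CPM added. Brca1 at 1.68, Blm at 1.14 and Bard1 at 1.01 were at least 2-fold higher (1.93% of all genes were), and none was 2-fold lower (1.97%). Brca1 stood at 39.3 against 5.4 CPM, and 55% of the low value came from 1 cell. The helicase gene Blm stood at 55.9 against 19.9 CPM, and Bard1 at 31 against 10.3. Without the deepest 10% of cells Blm was at 0.57 and Bard1 at 0.60, under 2-fold. Fancm was lowest at -0.64 (8.9 against 19.5 CPM). The MPP2-containing library had only 2 cells of low cycling level, against 35 double-negative cells, so the comparison has no usable value within low-cycling cells.

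Between HSC2/MPP4 and CD48-negative HSC2 the median was 0.23, with 36 of 47 above 0, against -0.03 over all genes. Exo1 at 1.01 (47.1 against 18.4 CPM) was 2-fold higher (1.81% of all genes) and none was 2-fold lower (3.19%). Rad51ap1 came next at 0.99 (43.3 against 16.9 CPM). Lig3 and Trp53bp1 were lowest at -0.64 and -0.60. Within low-cycling cells (23 and 53 cells) the median was 0, against -0.03 over all genes, with 20 members above 0 and 22 below. Brca1, Rad51c, Exo1, Fanci and Lig4 stood at exactly 0, the ratio when neither library has a count. The median of 0 is the value of these genes.

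Cells of the CD48-negative HSC2 and the double-negative libraries both lack CD48 by their gates, and this last comparison shares a library with each of the 2 comparisons before. Its member median was -0.05, with 19 of 47 above 0, and 0.00 over all genes. Trp53bp1 at 1.17 (30.2 against 7.9 CPM) was 2-fold higher (4.15% of all genes), and Xpa, the damage-verifying protein gene of excision repair, was 2-fold lower at -1.43 (30.6 against 99.4 CPM; 2.62% of all genes). Neither stayed past 2-fold without the deepest 10% of cells (Trp53bp1 0.55, Xpa -0.78) or with per-cell means (0.66 and -0.89). RNA kind and deposit differ between these libraries. Rad50 was at -0.95 (118 against 236 CPM) and Rad51ap1 at -0.93 (16.9 against 41.3 CPM). Within low-cycling cells (53 and 35) the median was 0, as over all genes, with 21 above 0 and 23 below. Here Fanca, Fanci and Lig4 held that 0, again the ratio of a gene without counts. Without the cells rich in neutrophil and erythroid genes the 4 medians were 0.28, 0.18, 0.20 and -0.03.

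**Figure D5:**
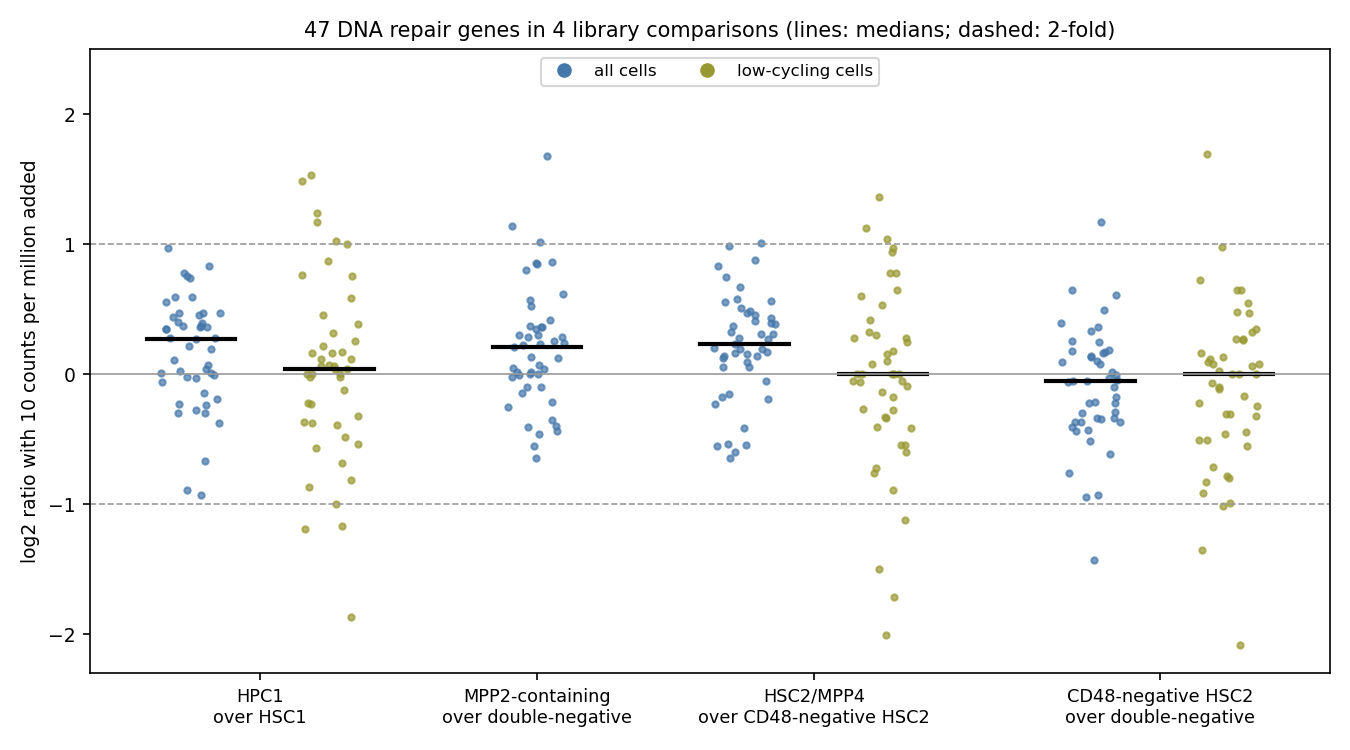
Log2 ratio with 10 CPM added (vertical axis) of each of the 47 members in the 4 library comparisons, over all cells (blue) and over low-cycling cells (olive); black lines are medians and dashed lines 2-fold. Low-cycling cells are not drawn for MPP2-containing over double-negative. The medians of 0.27 and 0.23 in HPC1 over HSC1 and HSC2/MPP4 over CD48-negative HSC2 stand at 0.04 and 0 in low-cycling cells, whose points spread more widely. That median of 0 is the ratio of members without counts in both libraries.

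The order of the summed members over the 6 libraries was followed without exception by 39 of 10520 other genes (Spearman coefficient 1 over 6 libraries). That order is the one over all counts, and after thinning HSC2/MPP4 stood above the MPP2-containing library. How many genes would follow it by chance was not tested. The 3 closest by Pearson coefficient of log2(CPM + 10) were Gmnn, an S phase gene of the cycling list, at 0.995, Pno1 at 0.993 and Smc2 at 0.989. Gmnn stood at 66.6 CPM in CD48-negative HSC2 and 221 CPM in the MPP2-containing library.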

How the data were processed

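The deposited values are scores: per gene they have mean 0 and SD 1 over the 497 cells of the 3 tables (found on the 9901 genes without a capped value) and are capped at 10. TopHat, HTSeq and mm10 are named in the submitters' processing notes, while the sources used here give no versions, annotation, strand, cell filters, doublet removal or molecular identifiers. Scores of cells that lack a gene fall on 1 plane of the 4 regressed covariates, which allowed the regression and scaling to be undone under an assumed scale factor of 10000. Of 1965692 recovered values from 1 to 50, 100.0% were whole within 0.01. The scale of each gene was chosen to make its values whole, and genes without such a scale were not kept. This share is therefore not an independent check of the recovery. Rows without a name (6) were left out. Not recovered were 269 genes without such a plane and 608 others, and recovered genes held 46.7 to 77.5% of a cell's total. A last pass for genes found in few cells was added after seeing that Lig4 was missing. At the cap a count is a lower bound (Fanca 1, Fancd2 1, Fanci 2, Ddb2 1 and Lig4 2 values). Recovery and fit were also run on data simulated under the same model, so a wrong model would not show there. The simulated cycling change of a gene was the same in every library. False calls from differences between libraries were therefore not tested.

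Counts were summed per library, or per library and cycling class, and scaled per 1000000 counts of the cells. Since the counts are worked back from scores, limma 3.58.1 in R 4.3.3 (trend, library as a block) was used on log2(CPM + 10) rather than a count model, for genes with a mean of at least 5 CPM and without the cycling genes. The planned tests were kept with this unit, and the same fit on averaged deposited scores was an alternative. Regressed on those covariates, the cycling level gave an R2 of 0.131. Cells were not filtered and no doublets were called. All members could be named. Of other lists, genes among the 3 with the largest change past the threshold were named (1 is not reported here), as were Cdkn1a and the 3 genes most like the members over libraries. Slamf1 and Hoxb5 were named because they had 0 counts. The members and lists were chosen with earlier results of these data known. Libraries are the replicates of the cycling fit, and nothing says how many mice they came from. In the fit the variance of each gene is drawn toward that of genes of like level. SEs and p-values therefore rest on a moderated spread, and not only on a gene's own spread between these libraries. The SD over libraries was 0.22 for Fancg and 1.16 for Brca1, while their SEs were 0.267 and 0.347.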

Additional observations from a re-analysis of the deposited data

How the results depend on the processing

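With 1 library a side, counts of members past 2-fold moved with the settings, and the cause was not tested. The share of all genes past 2-fold is given for the main setting only. The counts under other settings are therefore not read as a result about the members. For HPC1 over HSC1, where none passed, 7 were higher and 4 lower with 1 CPM added, 1 was higher with per-cell means, 1 lower without the highest cell of each gene, 1 higher and 1 lower without the deepest 10% of cells, 6 and 3 in low-cycling cells, and 1 lower without the cells rich in neutrophil and erythroid genes. For MPP2-containing over double-negative, the 3 higher and 0 lower became 7 and 2 with 1 CPM added, 0 higher with 50 CPM added and 1 higher without the deepest cells. In the 2 low-cycling MPP2-containing cells 17 were lower and the median was -0.66, against -0.32 over all genes. Brca1 at -0.10 and Blm at -0.51 reversed, and all of these values rest on those 2 cells. For HSC2/MPP4 over CD48-negative HSC2, the median of 0.23 became 0.42 with 1 CPM added, 0.10 with 50 CPM added and 0 in low-cycling cells. There the 1 higher and 0 lower became 6 and 2 with 1 CPM added, 0 higher with 50 CPM added, 4 with per-cell means, 4 without the highest cells, 5 without the deepest cells, and 3 and 4 in low-cycling cells. For CD48-negative HSC2 over double-negative, the 1 higher and 1 lower became 2 and 6 with 1 CPM added, 0 and 0 with 50 CPM added, 0 and 2 with per-cell means (Rad51ap1 and Exo1 in place of Xpa) or without the deepest cells, 2 lower without the highest cells and 3 lower in low-cycling cells. The summed levels stood at 1413 CPM in double-negative, 1565 in HPC1, 1610 in MPP2-containing, 1638 in HSC2/MPP4 after thinning, with CD48-negative HSC2 at 1200. The MPP2-containing and HSC2/MPP4 libraries thus changed order. Without the highest cell of each gene they were 1311, 1184, 1444, 1641, 1570 and 1146 in the same order of libraries, with HSC1 in second place. The coefficient of all members with cycling level in CD48-negative HSC2 was 0.24 at 10000 counts and 0.52 at 20000, which left out more cells.

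For cycling-high over cycling-low cells, 10 members were called higher, 6 with G2/M classes, 7 to 9 when 1 library was left out, and 12 on deposited scores. On those scores, in SD units, the median member differences of the 4 library comparisons were 0.04, 0.07, 0.16 and -0.03. Without the replicate block 8 were called, and the block paired the 2 classes of a library, which share its cells' source. No paired analysis was possible because each library comparison has 1 library a side. Over all settings 0 were called lower. The number of cells limits every library comparison, and the shallow CD48-negative HSC2 and HSC2/MPP4 libraries limit genes under about 4 CPM in a class.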
